A study of Mus musculus with 9 samples.

Results

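The genes described here encode lysosomal enzymes and lysosomal membrane proteins. They are 35 named genes found by symbol in the deposited table of 35112 genes, and each matched exactly 1 row. By role they are 9 cysteine cathepsins (Ctsb, Ctsc, Ctsf, Ctsh, Ctsk, Ctsl, Ctso, Ctss, Ctsz), 4 aspartic and serine proteases (Ctsd, Ctse, Ctsa, Tpp1), 6 glycosidases (Hexa, Gaa, Gusb, Glb1, Man2b1, Neu1), 6 genes of lipid breakdown and lipid handling (Psap, Grn, Npc1, Npc2, Lipa, Asah1), 2 acid phosphatases (Acp2, Acp5) and 8 membrane proteins (Lamp1, Lamp2, Laptm5, Cd63, Cd68, Scarb2, Mcoln1 and the proton pump subunit Atp6v0d2). They lie on 17 chromosomes. The rule matches symbols, and the list of symbols was drawn up with earlier results of these data known.

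The study asked how P7C3-A20, an aminopropyl carbazole studied as a neuroprotective compound, alters brain gene expression after intracerebral haemorrhage (ICH), bleeding into the brain tissue. Polyadenylated RNA was sequenced from samples labelled as brain of wild type C57BL/6 mice 72 hours after the procedure, with 3 mice in a sham group, 3 with ICH and 3 with ICH given P7C3-A20. All 9 mice share strain and genotype, and the labels give no brain region, dose, age or sex. Each library held 51537047 to 63324728 estimated counts, and mitochondrial genes took 9.14% to 10.4% of them in sham replicate 3, ICH replicate 3 and ICH+P7C3-A20 replicate 2, against 14.3% to 18.5% in the other 6. Markers of neurons, astrocytes and oligodendrocytes were present in all 9 libraries. The summed choroid plexus markers varied within every group, from 45.1 to 463 FPKM in sham, 51.6 to 2614 in ICH and 77.8 to 1737 with P7C3-A20, and the part of this and of the mitochondrial share in the results was not tested.

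Lysosomes are acidic compartments in which proteases, glycosidases, lipases and phosphatases break down material taken up from outside the cell or delivered by autophagy. Their limiting membrane carries heavily glycosylated LAMP proteins, transporters and a proton pump that keeps the lumen acidic. In the brain these genes are known for lysosomal storage diseases when mutated and for their high expression in microglia and macrophages, the cells that engulf debris and blood products after a haemorrhage.

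Many lysosomal genes carry in their promoters a CLEAR element, the site of the transcription factor TFEB and its MiT/TFE relatives, which contains the E-box CACGTG. The members' start regions were therefore searched in the RefSeq promoter table (GRCm38.p6), in windows from 250 bases before to 50 bases after each start. Of the 35 members 29 had an entry; Asah1, Atp6v0d2, Ctsb, Ctse, Ctsh and Npc1 had none. CACGTG reads the same on both strands, and it occurred in windows of 8 of the 29 matched members (27.6%), against 8.09% of all 27025 genes in the table, 7.15% of its 32851 windows and 10.6% of the 14134 tested genes that had an entry. The longer palindrome TCACGTGA, which contains the E-box, occurred in 3 members (10.3%), against 1.12% of all genes, 0.974% of windows and 1.80% of tested genes. These shares are descriptions of letters in a window, and a match is not evidence of binding.

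The windows with the longer palindrome are shown because they hold the letters closest to the CLEAR element, and the capitals mark it. Each sequence is 30 bases, 5′ to 3′ on the strand of the gene. The Ctsd palindrome (chr7:142387908-142387937, minus strand) lies 99 bases before the start, and the Mcoln1 palindrome (chr8:3500462-3500491, plus strand) 46 bases before. Each of these windows also holds 1 plain E-box, farther from the start and not printed. Ctsa has a pair of palindromes in 1 of its 2 windows, and the other window, at an upstream start, has no E-box. They are 1 at chr2:164833749-164833778 that lies 13 bases before the start and 1 at chr2:164833766-164833795, both on the plus strand. The palindrome of the latter begins at base 5, with the start counted as base 1.
Ctsd: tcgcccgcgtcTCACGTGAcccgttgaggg
Mcoln1: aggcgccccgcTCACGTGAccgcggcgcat
Ctsa, first site: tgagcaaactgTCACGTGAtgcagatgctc
Ctsa, other site: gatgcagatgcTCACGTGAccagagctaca

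The other 5 members with the plain E-box are shown for comparison, with CACGTG in capitals. Where a window holds several, the one nearest the start is printed: Lamp1 has 4 and each of the others 1. The printed E-box lies 15 bases before the start in Lamp1 (chr8:13159134-13159163, plus strand), 140 in Gaa (chr11:119267811-119267840, plus strand), 236 in Ctsl (chr13:64370739-64370768, minus strand), 79 in Ctsf (chr19:4855074-4855103, plus strand) and 48 in Glb1 (chr9:114401018-114401047, plus strand). These 5 were added to the display after their values had been seen.
Lamp1: acgtgaccacatCACGTGcggaacggagcc
Gaa: tttctgtgcgatCACGTGtttgactctgac
Ctsl: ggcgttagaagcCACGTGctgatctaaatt
Ctsf: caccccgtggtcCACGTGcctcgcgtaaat
Glb1: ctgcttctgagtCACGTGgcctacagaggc

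Levels are given below as FPKM, fragment counts normalised to transcript length and to library size, which can be compared between genes because they are per length. In sham brain the members with the highest mean were Psap at 348 ± 42.8 FPKM (SD, n = 3), the precursor of the saposins that help enzymes reach their lipid substrates, and Lamp1 at 109 ± 9.50. Only these 2 members exceeded 100 FPKM in all 3 sham libraries, while 7 did so in all 3 ICH libraries. Summed over the 35 members, the level was 873, 967 and 1029 FPKM in the sham libraries, 3057, 2895 and 3363 in the ICH libraries and 1203, 1831 and 1699.5 in the ICH+P7C3-A20 libraries. That sum was 0.245% to 0.341% of all FPKM in sham, 0.816% to 1.07% in ICH and 0.332% to 0.577% after P7C3-A20. The make-up of the sum differed as well. Ctsd, an aspartic protease, made up 9.36% to 10.3% of it in sham, 29.7% to 32.7% in ICH and 19.3% to 26.2% with P7C3-A20, whereas the share of Psap was 35.04% to 38.4%, 15.5% to 17.9% and 19.9% to 29.1%. No library range of either share overlapped between sham and ICH.

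**Figure D1:**
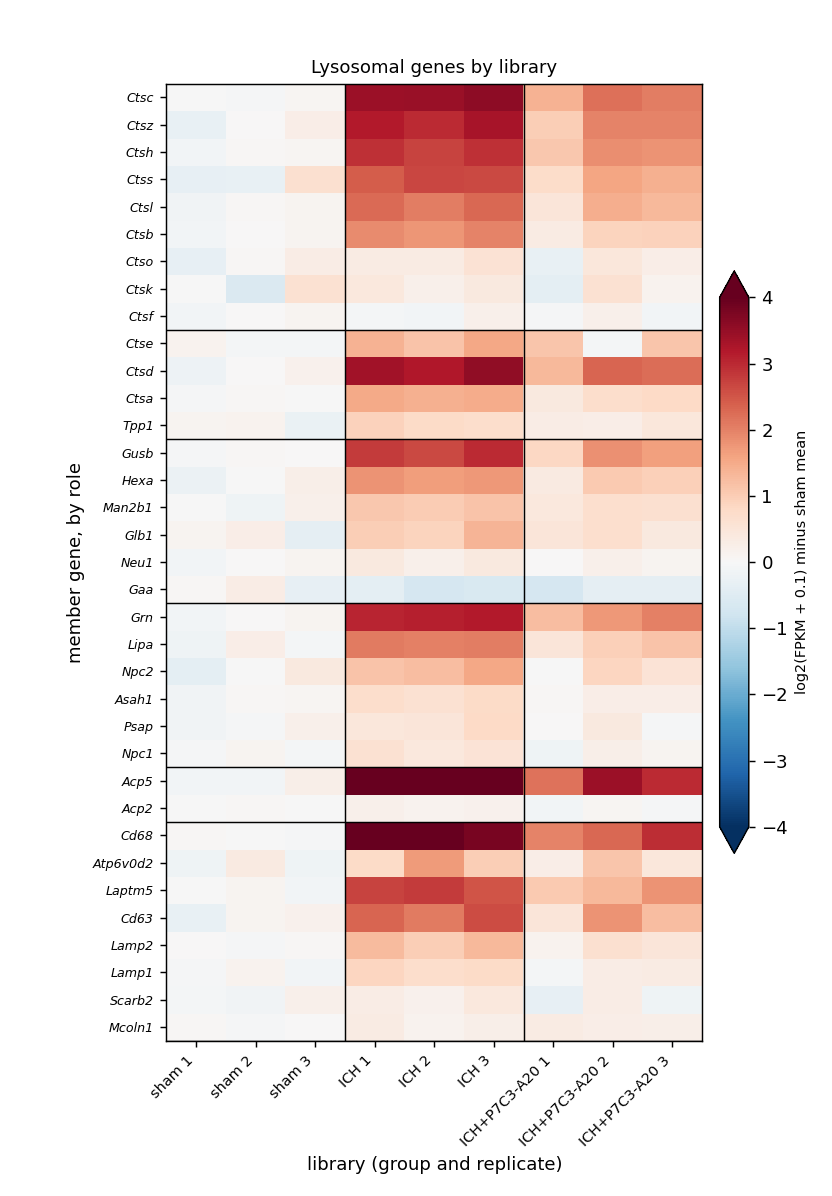
Each row is 1 of the 35 members, grouped by role, and each column 1 library. Colour is log2(FPKM + 0.1) minus the mean of the 3 sham libraries, with red above and blue below sham and colours saturating at 4 in either direction. The ICH columns are the reddest for most rows, the ICH+P7C3-A20 columns lie between, and Gaa is the only row that is blue in all 6 injured libraries.

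The comparison of ICH with sham shows how these transcripts differed 72 hours after haemorrhage. Most members rose: 27 of 35 were higher in ICH, by edgeR's quasi-likelihood test at a Benjamini-Hochberg adjusted p under 0.05 over the 21900 genes tested, where 15.6% of tested genes were called higher. Gaa fell, as the only member of 35, where 10.4% of tested genes were called lower. Of the 28 called members 20 differed at least 2-fold. The median log2 change over the members was 1.43, against 0.0020 over all tested genes. All 35 members passed the filter on low counts. The changes called in any comparison are edgeR log2 changes of scaled counts, so they differ slightly from ratios of FPKM. Where a log2 change is followed by ±, the value after it is its error.

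Among the cysteine cathepsins, which cut proteins in the acidic lumen, 6 of 9 rose. Ctsc, which activates the serine proteases of immune cell granules, was at 1.42, 1.37 and 1.51 FPKM in the sham libraries and 16.3, 16.6 and 18.4 in the ICH libraries (log2 change 3.52 ± 0.16, edgeR adjusted p = 2.73e-06). Ctsz, a carboxypeptidase, was at 14.4, 17.9 and 21.4 FPKM in sham and 160.0, 140.2 and 174 in ICH (3.10 ± 0.22, edgeR adjusted p = 8.07e-06). Ctsh, an aminopeptidase, was at 1.76, 1.98 and 2.004 FPKM in sham and 15.02, 13.03 and 15.1 in ICH (2.85 ± 0.17, edgeR adjusted p = 6.09e-06). For these 3 genes the sham and ICH libraries were far apart, with every ICH value several times the highest sham value. Ctsb, the cysteine cathepsin with the highest mean level, was at 64.04, 70.03 and 74.7 FPKM in sham and 258, 238 and 277 in ICH (1.84 ± 0.15, edgeR adjusted p = 1.5e-05). Ctss, which trims the invariant chain of MHC class II in antigen presenting cells, was at 29.5, 30.2 and 58.8 FPKM in sham and 200.9, 239 and 235 in ICH (2.49 ± 0.24, edgeR adjusted p = 4.67e-05), with sham replicate 3 well above the other sham libraries. Ctsl, a broad endopeptidase, rose by 2.16 on the log2 scale.

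The remaining cysteine cathepsins did not pass the test. Ctsk, the collagen-degrading cathepsin of osteoclasts, was at 1.34, 0.874 and 2.11 FPKM in sham and 1.86, 1.59 and 1.83 in ICH, with overlapping libraries (0.26 ± 0.31, edgeR adjusted p = 0.615). It is the neighbour of Ctss: the deposited table places Ctsk at chr3:95499256-95509362 and Ctss at chr3:95526786-95556403. Ctsf (-0.035 ± 0.088) also had overlapping libraries, and Ctso (0.35 ± 0.16, edgeR adjusted p = 0.133) did not overlap but missed the threshold.

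Of the aspartic and serine proteases all 4 were called higher. Ctsd (chr7:142375911-142388038, minus strand) is the main aspartic protease of lysosomes. Its level was 81.7, 95.3 and 106 FPKM in sham and 960.2, 859.5 and 1101 in ICH (3.32 ± 0.22, edgeR adjusted p = 7.4e-06), so that it stood above Psap in each ICH library and below it in each sham library. Ctsa, a serine carboxypeptidase that also protects Neu1 and Glb1 in a complex, was at 17.7, 19.0 and 17.8 FPKM in sham and 52.5, 48.7 and 50.7 in ICH (1.43 ± 0.13, edgeR adjusted p = 3.59e-05). Tpp1, the tripeptidyl peptidase lost in a childhood neuronal ceroid lipofuscinosis, rose by 0.73 on the log2 scale. Ctse, an endosomal aspartic protease of immune cells, was near the limit of detection. Its estimated counts were 4, 0 and 0 in sham and 38, 28 and 43 in ICH, at most 0.204 FPKM (4.64 ± 1.49, edgeR adjusted p = 0.0421). The call of Ctse was lost when any library other than sham replicate 1 was left out (adjusted p 0.0819 to 0.113), and leaving out that library moved the fitted change to 8.18.

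Among the glycosidases, which remove sugars from glycoproteins, glycolipids and glycogen, 5 of 6 rose and 1 fell. Gusb, the beta-glucuronidase, was at 2.17, 2.34 and 2.29 FPKM in sham and 16.3, 14.7 and 18.6 in ICH (2.80 ± 0.19, edgeR adjusted p = 7.4e-06). Hexa, the alpha subunit of beta-hexosaminidase, was at 15.9, 18.3 and 21.9 FPKM in sham and 64.6, 59.8 and 61.6 in ICH (1.69 ± 0.15, edgeR adjusted p = 2.21e-05). Man2b1, an alpha-mannosidase, was at 5.04, 4.54 and 5.92 FPKM in sham and 10.8, 10.5 and 11.4 in ICH (1.04 ± 0.10, edgeR adjusted p = 3.79e-05). All 3 showed a clear gap between sham and ICH libraries. Glb1, the beta-galactosidase, rose by 0.9996, and the sialidase Neu1 by 0.28 with an adjusted p of 0.0479 that any left-out library took past 0.05 (up to 0.170). Gaa, the acid alpha-glucosidase that degrades glycogen and is mutated in Pompe disease, had the highest mean level of the glycosidases and went the other way, from 69.8, 83.7 and 54.03 FPKM in sham to 52.2, 43.04 and 44.7 in ICH (-0.63 ± 0.19, edgeR adjusted p = 0.0329). Its libraries did not overlap, but the highest ICH value lay just under the lowest sham value. The call was lost without sham replicate 1 or 2 or ICH replicate 2 or 3 (adjusted p 0.0969 to 0.121), and stood without sham replicate 3 or ICH replicate 1.

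All 6 genes of lipid breakdown and handling rose. Grn, which encodes the progranulin that is processed to granulins in lysosomes, was at 10.6, 11.5 and 12.2 FPKM in sham and 95.6, 99.3 and 103 in ICH (3.07 ± 0.18, edgeR adjusted p = 6.09e-06). Lipa, the acid lipase for cholesteryl esters, was at 1.72, 2.32 and 1.80 FPKM in sham and 8.38, 8.15 and 8.29 in ICH (2.03 ± 0.19, edgeR adjusted p = 3.72e-05). Npc2, which binds cholesterol in the lumen, was at 6.76, 8.80 and 11.5 FPKM in sham and 19.6, 20.9 and 26.2 in ICH (1.26 ± 0.18, edgeR adjusted p = 0.000572). The libraries of the 2 groups did not overlap for any of these 3. Psap, the most abundant of the group, was at 311, 339 and 395 FPKM in sham and 474, 482 and 602 in ICH, a smaller difference that also left no overlap (0.53 ± 0.12, edgeR adjusted p = 0.00886). Its call was lost with limma, after quantile normalization (0.11, adjusted p = 0.542) and without a filter on low values (0.57, adjusted p = 0.0779). Asah1, the acid ceramidase, rose by 0.65. Npc1, the membrane protein that passes cholesterol out of the lysosome, rose by 0.48, a call lost without ICH replicate 1 (adjusted p = 0.0535 by edgeR).

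The acid phosphatases diverged. Acp5, the tartrate-resistant phosphatase of osteoclasts and some macrophages (chr9:22126727-22135711, minus strand), had the largest log2 change of all members. Its estimated counts were 0, 0 and 4 in the sham libraries and 373, 474 and 419 in the ICH libraries, or 0, 0 and 0.0265 against 2.73, 3.46 and 3.17 FPKM (8.24 ± 0.70, edgeR adjusted p = 2.13e-05). The size of this change rests on the 4 counts of sham replicate 3, without which the fit gave 11.69, which is no bound. Acp2, the widely expressed lysosomal phosphatase, was at 12.6, 13.3 and 12.7 FPKM in sham and 14.7, 14.1 and 14.4 in ICH. These libraries did not overlap, but the change of 0.11 ± 0.10 did not pass the test (adjusted p = 0.48 by edgeR).

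Of the 8 membrane proteins 5 rose. Cd68, the macrophage sialomucin of the LAMP family, was at 9.91, 9.54 and 9.37 FPKM in sham and 159.6, 153 and 135 in ICH (3.91 ± 0.26, edgeR adjusted p = 7.4e-06). Laptm5, a lysosomal membrane protein of blood-derived and microglial cells, was at 8.71, 9.54 and 8.10 FPKM in sham and 57.5, 61.6 and 50.5 in ICH (2.64 ± 0.23, edgeR adjusted p = 2.32e-05). Cd63, a tetraspanin of late endosomes and lysosomes, was at 5.56, 7.50 and 7.85 FPKM in sham and 34.9, 29.2 and 42.6 in ICH (2.30 ± 0.23, edgeR adjusted p = 5.49e-05). None of these 3 had a sham library within the ICH range. The values of Cd63 are uncertain, since its transcript shares 858 bases at 98.0% identity with the pseudogene Cd63-ps, which the table lists separately and which showed a change of 2.27 ± 0.21. Lamp1, the most abundant membrane protein, was at 106, 119.8 and 102 FPKM in sham and 199.7, 176 and 184 in ICH (0.72 ± 0.15, edgeR adjusted p = 0.00492), and Lamp2, needed for fusion with autophagosomes, rose by 1.14.

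The other membrane proteins were not called. Scarb2, the receptor that carries glucocerebrosidase to lysosomes, had a log2 change of 0.24 ± 0.10 with overlapping libraries, and Mcoln1, the lysosomal calcium channel, of 0.19 ± 0.11. Atp6v0d2, the d2 subunit of the proton pump, had 0, 9 and 0 estimated counts in sham and 17, 50 and 23 in ICH (3.27 ± 1.24, edgeR adjusted p = 0.0798). Without sham replicate 2, the only sham library with counts, the fitted change of Atp6v0d2 moved to 7.94 and was called higher (adjusted p = 0.00751 by edgeR). With all libraries DESeq2 called it as well (adjusted p = 0.0257).

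**Figure D2:**
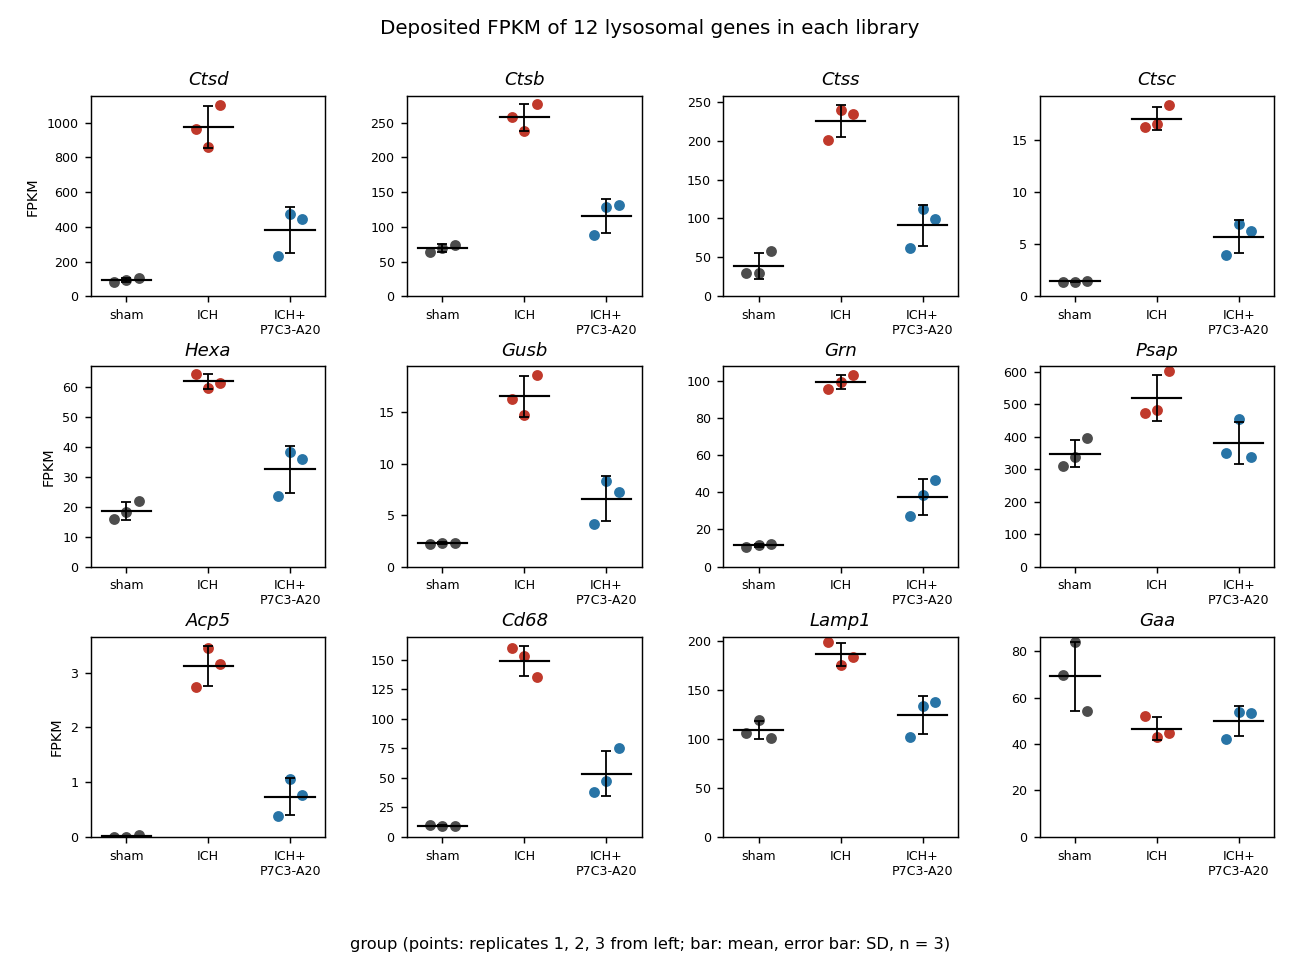
Deposited FPKM (y axis, from 0, a scale of its own in each panel) of 12 members in each library, by group on the x axis; points are the 3 replicates, the horizontal bar is the mean and the error bar the SD (n = 3). Ctsd reaches 860 to 1101 FPKM in ICH, and the ICH+P7C3-A20 points of most panels lie between sham and ICH, while Gaa is highest in sham.

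In bulk tissue, more cells of a type and more RNA per cell cannot be told apart. Marker lists of several cell types moved with the members. All 10 microglia markers were called higher in ICH, and their summed level was 85.7 to 115 FPKM in sham, 350.3 to 389 in ICH and 146 to 232 with P7C3-A20. All 12 monocyte and macrophage markers were called higher, with sums of 10.4 to 11.98, 217 to 277 and 40.4 to 82.8 FPKM. No marker of these 2 lists was at 0 throughout a group. The sum of the neutrophil markers (5 of 8 tested called higher) was 2.24 to 3.43, 13.03 to 21.4 and 6.62 to 11.7 FPKM, that of the astrocyte markers (6 of 8) 352 to 396, 993 to 1086 and 552 to 747, and that of the endothelial markers (8 of 8) 55.2 to 69.3, 132 to 153 and 74.6 to 96.7. In every library the larger part of the neutrophil sum was Csf3r, at 1.87 to 1.98, 8.81 to 12.97 and 4.25 to 7.39 FPKM. S100a8, Ngp and Camp were tested but not called in ICH against sham. Most of the astrocyte difference between sham and ICH was Gfap, at 19.5 to 28.7, 597.5 to 698 and 149 to 281 FPKM. Slc1a2 and Aldoc were not called in ICH against sham, and Slc1a2 was higher with P7C3-A20 than in ICH (log2 change 0.68, edgeR adjusted p = 0.0228). Of the 6 red blood cell markers tested 4 were called higher, with sums of 11.04 to 30.2, 51.3 to 109 and 14.3 to 47.4 FPKM. The sums of the oligodendrocyte markers, 1109 to 1476, 1549.8 to 1963 and 646 to 1572 FPKM, are wide with P7C3-A20, and all 8 neuron markers were called lower in ICH (sums of 621 to 663, 402 to 433 and 484 to 666). Osteoclast and multinucleated phagocyte markers other than the members stayed low, with sums of 3.64 to 4.15 FPKM in sham, 5.84 to 6.05 in ICH and 3.71 to 6.02 with P7C3-A20, and 3 of the 5 tested were called higher in ICH. The part of these cell types in the members' changes was not tested. Divided by the summed microglia, monocyte and macrophage markers, the members' summed level was 8.22 to 9.89 in sham, 4.62 to 5.37 in ICH and 5.40 to 6.46 with P7C3-A20. The members' sum thus differed between groups by a smaller factor than the summed myeloid markers.

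**Figure D3:**
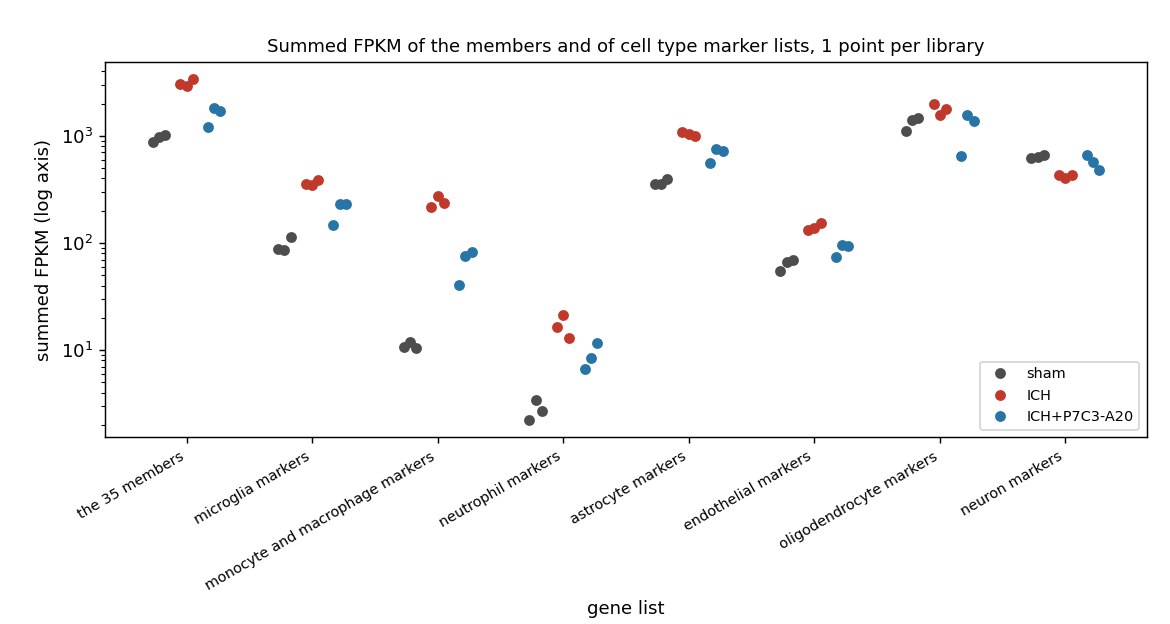
Summed FPKM (y axis, logarithmic) of the 35 members and of 7 cell type marker lists (x axis), with 1 point per library coloured by group. The members, the microglia markers and the monocyte and macrophage markers are ordered sham, ICH+P7C3-A20, ICH, whereas the neuron markers are lowest in ICH.

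The comparison of ICH+P7C3-A20 with ICH asks how these transcripts differed when injured mice received the compound. Of the 35 members 20 fell, 14 of them at least 2-fold, where 6.05% of tested genes were called lower. Called higher were 0 members by edgeR, where 2.69% of tested genes were, and the count was also 0 at an unadjusted p under 0.05 and with DESeq2. The median log2 change over the members was -0.78, against -0.0070 over all tested genes. In 28 members all 3 ICH+P7C3-A20 libraries lay below every ICH library. How many of all tested genes did so was not determined. The 3 comparisons use the same 3 groups, so each pair of them shares libraries and their changes are not independent.

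**Figure D4:**
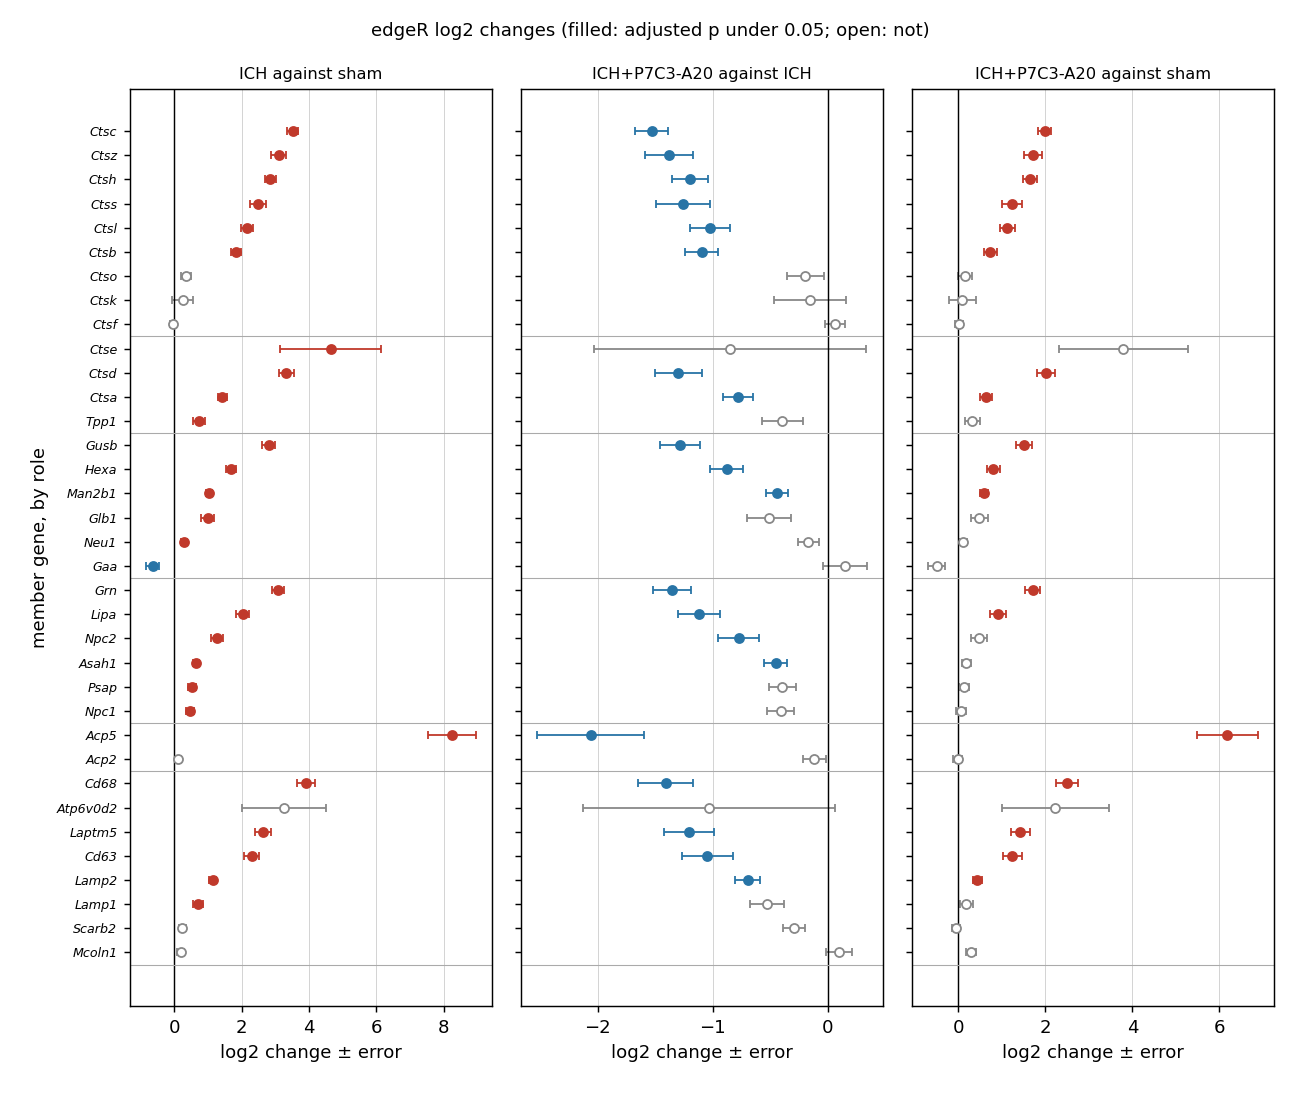
edgeR log2 change (x axis, a different range in each panel) of each member (y axis, by role), with its error as a bar. Filled points passed an adjusted p of 0.05, red higher and blue lower, and open grey points did not; 28, 20 and 18 members are filled from left to right.

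The 6 cysteine cathepsins that were called higher in ICH were all called lower with P7C3-A20. Ctsc, the granule protease activator, was at 3.95, 7.01 and 6.25 FPKM in the ICH+P7C3-A20 libraries, against 16.3 to 18.4 in ICH (-1.53 ± 0.15, edgeR adjusted p = 0.00508). Ctsz was at 35.3, 70.05 and 70.9 FPKM with P7C3-A20 (-1.38 ± 0.21, edgeR adjusted p = 0.00684). Ctss was at 62.1, 113 and 99.9 FPKM (-1.26 ± 0.23, edgeR adjusted p = 0.0114), and its call was lost without ICH replicate 2 (adjusted p = 0.0519 by edgeR). In each of the 3 the ICH+P7C3-A20 libraries lay between the sham and ICH ranges, with replicate 1 the lowest. For Ctss that replicate, at 62.1 FPKM, was only just above sham replicate 3 at 58.8. Ctsb, the most abundant of the group, was at 88.1, 129 and 131 FPKM (-1.10 ± 0.14, edgeR adjusted p = 0.00634). Ctsh fell by 1.201 and Ctsl by 1.03 on the log2 scale. Ctsf (0.061 ± 0.088), Ctsk (-0.16 ± 0.31) and Ctso (-0.20 ± 0.16) did not pass the test, and their libraries overlapped.

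Among the aspartic and serine proteases Ctsd and Ctsa fell. Ctsd was at 233, 472 and 446 FPKM with P7C3-A20, a mean of 383 ± 131 (SD, n = 3) against 973 ± 121 in ICH (-1.30 ± 0.21, edgeR adjusted p = 0.00739). Ctsa was at 23.6, 29.4 and 31.9 FPKM (-0.78 ± 0.13, edgeR adjusted p = 0.00828). Both lay between the groups, with no library inside the sham or the ICH range. Tpp1 (-0.39 ± 0.18) did not pass the test although its libraries did not overlap. Ctse had 26, 0 and 27 estimated counts, and was not called (-0.85 ± 1.18).

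Of the glycosidases Gusb, Hexa and Man2b1 fell. Gusb was at 4.14, 8.33 and 7.28 FPKM with P7C3-A20 (-1.28 ± 0.18, edgeR adjusted p = 0.00636). Hexa was at 23.7, 38.3 and 36.1 FPKM (-0.88 ± 0.14, edgeR adjusted p = 0.00764). Man2b1 was at 6.95, 8.25 and 8.04 FPKM (-0.44 ± 0.10, edgeR adjusted p = 0.0213). All 3 genes were below their ICH libraries and above their sham libraries in every mouse. The call of Man2b1 was lost when any ICH library or ICH+P7C3-A20 replicate 1 or 2 was left out (adjusted p 0.0527 to 0.0929). Glb1 (-0.51 ± 0.19) and Neu1 (-0.17 ± 0.094) did not pass, with libraries that did not overlap. Gaa, lower in ICH than in sham, was at 42.3, 53.6 and 53.3 FPKM with P7C3-A20 and overlapped the ICH libraries (0.15 ± 0.19, edgeR adjusted p = 0.717).

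In the lipid group Grn, Lipa, Npc2 and Asah1 fell. Grn was at 27.1, 38.4 and 46.4 FPKM with P7C3-A20 (-1.35 ± 0.17, edgeR adjusted p = 0.00622). Lipa was at 2.72, 3.86 and 4.40 FPKM (-1.12 ± 0.18, edgeR adjusted p = 0.00793). Npc2 was at 8.75, 16.1 and 13.03 FPKM (-0.77 ± 0.18, edgeR adjusted p = 0.0257). Grn and Lipa kept clear of the sham range, whereas Npc2 overlapped it. Asah1 fell by 0.46 (adjusted p = 0.019 by edgeR). The calls of Npc2 and Asah1 were each lost without any 1 of the ICH libraries or without ICH+P7C3-A20 replicate 1 (adjusted p 0.0548 to 0.0976 and 0.0629 to 0.0781). Psap was at 350.1, 456 and 338 FPKM and was not called (-0.39 ± 0.12, edgeR adjusted p = 0.0694), and neither was Npc1 (-0.41 ± 0.12, edgeR adjusted p = 0.0536), although all their ICH+P7C3-A20 libraries lay below every ICH library. DESeq2 called both lower (adjusted p = 0.00175 and 0.0154).

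Acp5 had 49, 148 and 104 estimated counts with P7C3-A20, or 0.383, 1.06 and 0.762 FPKM, below every ICH library and above every sham library (-2.06 ± 0.46, edgeR adjusted p = 0.023). Its call held without ICH+P7C3-A20 replicate 2 but was lost when any of the other 5 libraries was left out (adjusted p 0.0548 to 0.0922). Acp2, the other acid phosphatase, was at 12.01, 13.7 and 12.6 FPKM (-0.12 ± 0.10, not called).

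Cd68, Laptm5, Cd63 and Lamp2 fell among the membrane proteins. Cd68 was at 38.3, 47.7 and 75.2 FPKM with P7C3-A20 (-1.41 ± 0.24, edgeR adjusted p = 0.00825). Laptm5 was at 18.02, 21.5 and 30.9 FPKM (-1.21 ± 0.22, edgeR adjusted p = 0.0105), and its call was lost without ICH replicate 2 (adjusted p = 0.0502 by edgeR). Cd63 was at 9.75, 24.3 and 16.4 FPKM (-1.05 ± 0.22, edgeR adjusted p = 0.0183), a call lost without any 1 of the ICH libraries (adjusted p 0.0504 to 0.0722). In all 3 the ICH+P7C3-A20 libraries were spread widely between the sham and ICH ranges, and replicate 1 was the lowest. Lamp2 fell by 0.70. Lamp1 was at 102, 134 and 137 FPKM and narrowly missed the threshold (-0.53 ± 0.15, edgeR adjusted p = 0.0504), and it passed in 7 of the 17 alternative fits: DESeq2 (adjusted p = 0.00535), limma with either pseudocount (0.0325 and 0.0378), edgeR without the count filter (0.0345), with a CPM filter (0.0436) or on the compared groups only (0.0414), and without ICH+P7C3-A20 replicate 3 (0.0372). Scarb2 (-0.30 ± 0.10) and Atp6v0d2 (-1.03 ± 1.10) were not called, and Mcoln1 was at 9.42 to 9.92 FPKM, within the range of ICH (0.10 ± 0.11). Scarb2 was called lower without ICH+P7C3-A20 replicate 2 (adjusted p = 0.0447 by edgeR) and with DESeq2 (0.0419).

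Markers of some cell types moved with this comparison too. Of the 10 microglia markers 4 were called lower with P7C3-A20 (median log2 change -0.64), and of the 12 monocyte and macrophage markers 9 (median -2.02). Lower as well were 5 of 8 endothelial markers (median -0.65) and 3 of 8 astrocyte markers (median -0.28, with 1 higher), while 2 of 8 neuron markers were called higher (median 0.62). Of the tested neutrophil markers 1 of 8 was called lower, and of the osteoclast and multinucleated phagocyte markers 2 of 5. Among the oligodendrocyte, red blood cell, lymphocyte and choroid plexus markers 0 were called in either direction. The part of these cell types in the members' changes was not tested. ICH+P7C3-A20 replicate 1 was the lowest of its group in 29 of 35 members, where it was so in 49.2% of tested genes. It also had the lowest summed microglia markers (146 FPKM, against 232 in each of the other 2), monocyte and macrophage markers (40.4, against 75.0 and 82.8) and oligodendrocyte markers (646, against 1366 and 1572). Its summed neutrophil, astrocyte, endothelial and red blood cell markers were the lowest of the group as well. Its summed neuron markers were the highest, at 666 FPKM against 567 and 484. Without ICH+P7C3-A20 replicate 1, 16 members were called lower than in ICH and 19 higher than in sham. Without ICH replicate 2 the number was 13, the lowest of the 6 fits that each left out 1 library.

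The comparison of ICH+P7C3-A20 with sham shows where treated injured brain still differed from uninjured brain. Of the 35 members 18 were higher, 12 of them at least 2-fold, where 4.58% of tested genes were called higher. Called lower were 0 members by edgeR, where 0.744% of tested genes were. At an unadjusted p under 0.05 the count was 1, and with DESeq2 it was 0. The median log2 change was 0.64, against 0.027 over all tested genes. For 20 of 35 members all 3 ICH+P7C3-A20 libraries lay above every sham library and below every ICH library, against 5.72% of tested genes. Called higher than sham with P7C3-A20 were also 9 of 10 microglia, 8 of 12 monocyte and macrophage, 5 of 8 endothelial, 3 of 8 astrocyte and 2 of 8 tested neutrophil markers.

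Acp5 had the largest change among the called members (6.18 ± 0.70, edgeR adjusted p = 0.000842), followed by Cd68 (2.497 ± 0.25, edgeR adjusted p = 0.000517), Ctsd (2.02 ± 0.21, edgeR adjusted p = 0.000601) and Ctsc (1.98 ± 0.15, edgeR adjusted p = 0.000164). The value of Acp5 rests on the 4 counts of sham replicate 3, without which the fit gave 9.63, which is no bound. Ctsz (1.72), Grn (1.72), Ctsh (1.65), Gusb (1.52), Laptm5 (1.43), Cd63 (1.25), Ctss (1.23) and Ctsl (1.13) were also more than 2-fold higher than sham. Smaller rises were called for Lipa (0.91), Hexa (0.81), Ctsb (0.74), Ctsa (0.64), Man2b1 (0.60) and Lamp2 (0.44). Leaving out sham replicate 1 or ICH+P7C3-A20 replicate 3 ended the calls of Ctsa, Ctsb, Ctss, Lipa and Lamp2, and that of Lamp2 was also lost without sham replicate 2 or 3 or ICH+P7C3-A20 replicate 2. The abundant Psap (0.13 ± 0.12) and Lamp1 (0.19 ± 0.15) were not called, and their ICH+P7C3-A20 libraries overlapped sham. Gaa was at 42.3 to 53.6 FPKM with P7C3-A20, below all 3 sham libraries, but was not called (-0.49 ± 0.19, edgeR adjusted p = 0.203), except without sham replicate 3 (adjusted p = 0.0211 by edgeR). Npc2 (0.48 ± 0.18) was not called, but it was without ICH+P7C3-A20 replicate 1 (adjusted p = 0.0358 by edgeR). Atp6v0d2 (2.24 ± 1.23) was called only without sham replicate 2, where the fitted change moved to 6.91. Not called in this comparison were also Acp2 (-0.0096), Asah1 (0.19), Ctse (3.79), Ctsf (0.026), Ctsk (0.10), Ctso (0.16), Glb1 (0.49), Mcoln1 (0.29), Neu1 (0.11), Npc1 (0.066), Scarb2 (-0.052) and Tpp1 (0.33), of which Glb1, Mcoln1 and Tpp1 had libraries all above sham. The value of Ctse moved to 7.33 without sham replicate 1, the only sham library with counts of it.

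The 8 members with an E-box in the promoter window varied widely in these changes. In ICH against sham their median log2 change was 0.86 (from -0.63 in Gaa to 3.32 in Ctsd), and that of the 21 matched members without it was 1.69 (0.11 to 8.24). In ICH+P7C3-A20 against ICH the medians were -0.52 and -0.88. The 3 members whose windows are printed above with the longer palindrome had log2 changes in ICH of 3.32 (Ctsd), 1.43 (Ctsa) and 0.19 (Mcoln1, not called). No test was made of these groups of members.

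The rest of the lysosomal system was examined in 6 further lists, whose counts are read against all tested genes: 15.6% were called higher and 10.4% lower in ICH, and 2.69% higher and 6.05% lower with P7C3-A20 than in ICH. No test compared the lists with the members. Of 33 other lysosomal hydrolases 25 were called higher in ICH, with a median log2 change of 1.07. The largest were Ifi30 (4.72 ± 0.25), the thiol reductase that unfolds antigens, Plbd1 (4.42 ± 0.50), a phospholipase B domain protein, and Lgmn (2.51 ± 0.19), the asparaginyl endopeptidase that matures cathepsins, at a mean of 232 FPKM in ICH against 39.2 in sham. With P7C3-A20, 17 of the 33 were called lower than in ICH (median -0.64), led by Plbd1 (-1.92 ± 0.44) and Ifi30 (-1.86 ± 0.22). That number was 6 without ICH replicate 2, 9 without ICH replicate 1 or ICH+P7C3-A20 replicate 1 and 10 without ICH replicate 3, and the call of Plbd1 was lost in 4 of the 6 fits that left out 1 library. Against sham, 9 stayed called higher with P7C3-A20 (5 without sham replicate 1).

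Of 27 tested membrane proteins outside the members, 14 were called higher and 2 lower in ICH (median 0.33). Higher were Slc11a1 (4.36 ± 0.24), the metal transporter of phagosomes, Slc15a3 (3.83 ± 0.27), a peptide and histidine transporter, and Tpcn2 (1.996 ± 0.23), a cation channel. Lower were Lamp5 (-0.51 ± 0.15), a LAMP family protein of neurons, and Tmem106b (-0.45 ± 0.10). The number higher was 8 or 9 without sham replicate 1, ICH replicate 1 or ICH replicate 2, and the call of Lamp5 stood only without sham replicate 2. With P7C3-A20, 6 were called lower than in ICH, led by Slc15a3 (-1.86 ± 0.25) and Slc11a1 (-1.61 ± 0.21), and Lamp5 was called higher (0.65 ± 0.15), a call that no fit with 1 library left out retained.

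The proton pump acidifies the lysosome. Of its 22 V-ATPase subunits 4 were called higher in ICH, near the 15.6% of all tested genes, and 7 lower, where 10.4% of tested genes were (median -0.29). Higher were Tcirg1, the a3 subunit of osteoclasts and immune cells (2.07 ± 0.13), and Atp6v0e (0.93 ± 0.11), and the call of Atp6v1b1, listed at 0 in all sham libraries and at a mean of 0.049 FPKM in ICH, was lost in every fit that left out 1 library. Lower were Atp6v1b2 (-0.63 ± 0.13), the brain B subunit at 65.00 FPKM in sham, Atp6v1h (-0.62 ± 0.16) and Atp6v1c2 (-0.91 ± 0.29). The call of Atp6v1c2 was lost without sham replicate 1, and the number lower was 2 without ICH replicate 2 and 4 without sham replicate 2 or ICH replicate 3. With P7C3-A20 the subunits Tcirg1 (-1.22 ± 0.13) and Atp6v0e (-0.50 ± 0.11) were among 3 called lower than in ICH, and leaving out any 1 ICH library or ICH+P7C3-A20 replicate 1 left 1 call.

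The enzyme sorting list includes genes that tag hydrolases with mannose 6-phosphate or carry them to lysosomes. It had 4 of 20 genes higher and 1 lower in ICH (median -0.073), shares not far from those of all tested genes. Among those higher were Nagpa (1.38 ± 0.18), which uncovers the tag, Cln6 (0.90 ± 0.15) and Sumf1 (0.49 ± 0.13), and Gga3 (-0.33 ± 0.092) was lower. The number higher was 2 without sham replicate 1 or ICH replicate 3, and Gga3 kept its call only without sham replicate 3 or ICH replicate 1. With P7C3-A20, Nagpa (-0.95 ± 0.18) and the mannose 6-phosphate receptor M6pr (-0.39 ± 0.10) were called lower than in ICH, and without ICH replicate 1 or 2 neither was. Of 8 tested inhibitors of cathepsins 4 were called higher in ICH. Serpina3n, a serpin of reactive astrocytes, was at a mean of 315 FPKM in ICH against 4.86 in sham (5.95 ± 0.36), a level made uncertain by its closely related Serpina3 copies. Cst7, a cystatin of activated microglia, rose by 6.06 ± 0.72, and Cstb by 1.59 ± 0.18. Serpina3n (-1.69 ± 0.30) and Cstb (-1.03 ± 0.17) fell with P7C3-A20.

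The regulators of lysosomal genes at the lysosome surface, the MiT/TFE factors and the mTORC1 machinery, split in both directions, with 8 of 23 higher and 5 lower in ICH (median 0.0026). The transcription factors Tfec (4.95 ± 0.94) and Tfeb (0.87 ± 0.19) and the folliculin partner Fnip2 (0.81 ± 0.11) were higher. Tfec was scarce, at a mean of 0.339 FPKM in ICH. The Rag GTPases Rragb (-0.89 ± 0.15), Rragd (-0.67 ± 0.16) and Rraga (-0.45 ± 0.10) were lower. With P7C3-A20, Tfeb (-0.71 ± 0.19) and Fnip2 (-0.57 ± 0.11) were among 3 called lower than in ICH, and without ICH replicate 2 or 3 that number was 0, and 1 without any of the other 4 libraries. The number higher in ICH was 5 without sham replicate 1 or 2 or ICH replicate 1 or 2.

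In ICH+P7C3-A20 against sham 4.58% of tested genes were called higher. Among these lists the calls were 9 of 33 hydrolases, 3 of 27 membrane proteins and 2 of 8 cathepsin inhibitors. They were 1 of 22 V-ATPase subunits and 1 of 23 MiT/TFE and mTORC1 genes, both near the share of all tested genes, and 0 of 20 enzyme sorting genes. Ifi30 (2.86 ± 0.24), Plbd1 (2.499 ± 0.48), Slc11a1 (2.75 ± 0.23), Slc15a3 (1.97 ± 0.26), Cst7 (4.76 ± 0.70), Serpina3n (4.26 ± 0.33) and Tcirg1 (0.85 ± 0.13) were called higher. Tfec (3.83 ± 0.93) was called as well but lost its call without sham replicate 1 or 3 or any ICH+P7C3-A20 library, and Plbd1 without sham replicate 1 or 2.

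**Figure D5:**
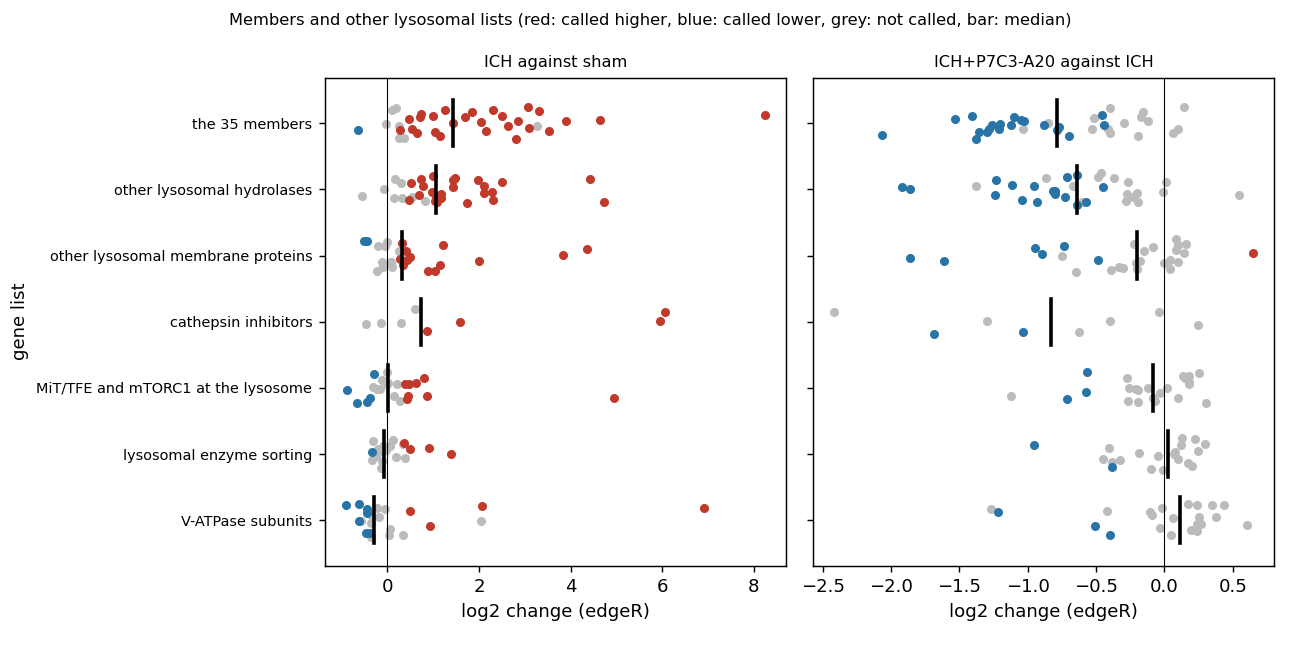
edgeR log2 change (x axis) of each tested gene in the 35 members and 6 other lysosomal lists (y axis), for ICH against sham on the left and ICH+P7C3-A20 against ICH on the right; points are genes, red called higher, blue called lower and grey not called, and the black bar is the median. The members and the other hydrolases lie to the right in ICH (medians of 1.43 and 1.07), while the V-ATPase subunits centre at -0.29.

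Several members overlap or resemble other genes, and the strand setting of the counting is not given in the sources used here. Acp2 with Ddb2, Ctsa with Neurl2 and Pltp, Ctsb with Fdft1, Hexa with Tmem202 and Npc1 with Rmc1 share 255 to 774 bases of exon at overlapping loci on opposite strands. If the counting ignored strand, reads of the 2 genes there cannot be told apart, and these members' levels are uncertain to that extent. The partners nearest their member in mean level were Pltp (21.4 FPKM against 32.4 for Ctsa) and Rmc1 (3.52 against 7.22 for Npc1). In GENCODE M21, Ctsd also shares 671 bases with Gm49369 on its own strand, and Ctsl 977 bases with the antisense gene Gm47123, both at overlapping loci; neither partner was analysed here. Mcoln1 shares 400 bases at 95% identity with A230057D06Rik, a long noncoding RNA gene elsewhere, at a mean of 2.24 FPKM against 9.03 for Mcoln1. Cd63-ps, the copy of Cd63 elsewhere in the genome, was at 2.67, 3.58 and 3.13 FPKM in sham, 16.3, 12.999 and 17.9 in ICH and 4.46, 7.20 and 7.03 with P7C3-A20, below Cd63 in every library. Without strand, reads of Lamp1 and Grtp1 and of Acp5 and 6530413G14Rik, which lie on opposite strands over the same bases, could be counted for either, and these partners were at mean levels of 0.778 and 0.0377 FPKM against 140.1 for Lamp1 and 1.29 for Acp5. Glb1 contains Tmppe on its own strand, at a mean of 1.11 FPKM against 5.64 for Glb1.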

How the data were processed

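Brain RNA of 9 mice (3 per group) was made into strand-marked (dUTP) poly(A) libraries, per the labels' protocols. The submitters' processing notes name HISAT2 2.0.4, StringTie 1.3.4d and cutadapt 1.9. Of the counting step, its strand setting and the genome build, nothing is given in the sources used here. A single deposited table lists 35112 genes with FPKM per library, per the file headers. It also holds estimated counts, which the authors deposited as whole numbers and which were used as they are. Positions are the table's, and 32 of 35 members lie exactly as in GENCODE M21 (GRCm38).

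Counts were tested with edgeR 4.0.16 (quasi-likelihood, TMM scaling, all 3 groups in 1 fit, filterByExpr with a minimum count of 10, Benjamini-Hochberg adjustment over 21900 genes, threshold 0.05). The error of a log2 change is its size divided by the square root of edgeR's F. The scripts were tested on simulated data. Alternatives were RLE and upper-quartile scaling, DESeq2 1.42.0, limma 3.58.1 on log2 FPKM with a pseudocount of 1 or 0.1 and after quantile normalization, other filters, a replicate block, only the compared groups, and each library left out. Members and gene lists were chosen with earlier results of these data known. Members named with all their values are, per role and comparison, the 3 called with the largest change, the most abundant, and any called against the majority. Beyond this rule Ctss and Ctsk are given in full for ICH against sham, and Ctse and Atp6v0d2 are given by their counts. From each other list up to 3 called genes per direction are named for ICH against sham and up to 2 for the other comparisons. Shared sequence was sought with blastn at 95% identity over 250 bases.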

Additional observations from a re-analysis of the deposited data

How the results depend on the processing

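For the 35 members, the number called higher in ICH against sham was 24 to 27 in the 17 alternative fits, and the number called lower in ICH+P7C3-A20 against ICH was 13 to 24. Gaa, the member lower in ICH, was lost with limma without a filter and with the replicate block (0 members), and 0 to 1 members were lower when 1 library was left out. With 1 library left out, 13 to 20 members were lower in ICH+P7C3-A20 against ICH, and 13 to 19 higher and 0 to 1 lower in ICH+P7C3-A20 against sham. In the last comparison limma on log2(FPKM + 1) without a filter called 6 members higher. On log2(FPKM + 1) with the filter, limma ended the calls of Cd63, Hexa, Ctsb, Ctss, Man2b1 and Lamp2 there, and edgeR on the compared groups only those of Ctsa, Ctsb, Ctss, Lipa and Lamp2. In ICH+P7C3-A20 against ICH limma without a filter ended the calls of Asah1, Cd63, Ctss, Man2b1 and Npc2, and edgeR on the compared groups added Glb1, Npc1 and Lamp1.

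Labels give each group replicates 1 to 3, but the numbers do not pair the mice: deviations of same-numbered libraries from their group means correlated at -0.13 to 0.092, and not every library correlated best with its own number. With the replicate block, members called were 27 higher in ICH against sham, 20 lower in ICH+P7C3-A20 against ICH and 18 higher in ICH+P7C3-A20 against sham. They were not the same members throughout: the block added Atp6v0d2 and ended the call of Neu1 (adjusted p = 0.0374 and 0.0839) and of Gaa (0.0501) in ICH against sham, and added Npc2 and ended the call of Lamp2 (0.0388 and 0.0815) in ICH+P7C3-A20 against sham.

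Counts over all genes moved more. In ICH against sham, 2283 were lower, but 1230 with limma on log2(FPKM + 1), 1246 with log2(FPKM + 0.1), 707 without a filter and 1354 to 2216 with 1 library left out. Quantile normalization called 2499 higher and 3300 lower there, against 3418 and 2283, and moved the median of all genes to -0.099. In ICH+P7C3-A20 against ICH, 590 were higher, but 1252 with DESeq2, 258, 228 and 85 with those 3 limma fits, 1043 after quantile normalization and 79 to 741 with 1 library left out. Of those lower, 1324 became 2150 with DESeq2, 876 with limma without a filter and 465 to 1213 with 1 left out. In ICH+P7C3-A20 against sham, 1002 were higher, but 1545 with DESeq2, 385, 504 and 131 with the limma fits, 416 after quantile normalization, 393 from only the compared groups and 496 to 1244 with 1 left out. There 163 were lower, but 502 with DESeq2, 23, 28 and 4 with limma, 42 from only the compared groups and 42 to 243 with 1 left out. Fits with 1 library fewer have fewer samples; other causes were not tested.

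Signs of log2 changes turned only for members that were not called in the comparison. Ctsf in ICH against sham was 0.0126, 0.0137 and 0.0126 with limma and -0.083 to 0.0028 with 1 library left out. In ICH+P7C3-A20 against sham Ctsf was -0.012 without the count filter and -0.00018 to 0.058 with 1 left out. Ctsk was -0.34 to 0.032 in ICH+P7C3-A20 against ICH. Against sham Ctsk was -0.030 after quantile normalization and -0.13 to 0.39 with 1 left out, Acp2 0.0032 and -0.083 to 0.046, Npc1 -0.031 to 0.16 and Scarb2 -0.14 to 0.018. Ctse and Atp6v0d2, at no more than 50 counts in any library, are limited by depth.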
